A study of Mus musculus with 18 samples.

Results

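The kidney cortex of FK506-treated MRL/lpr mice was compared with that of healthy mice, and the genes that stayed apart from the healthy level under the drug are described. The comparison uses the 3 FK506 libraries and the 3 healthy libraries, 6 of the 18 libraries of the series, and all 15035 genes of the deposited log2 values. The FK506 group consisted of MRL/lpr mice (Mrl/lpr in the labels) given FK506, which the treatment field spells FK5O6. The healthy group consisted of MRL/MpJ mice (Mrl/Mpj wild type) given vehicle. A vehicle group of 3 MRL/lpr mice served as the untreated disease level, and MMF, prednisone and multi-target groups of 3 MRL/lpr mice each completed the series. Genotype, disease and drug all differ between FK506-treated and healthy mice, and their parts in a difference cannot be told apart in this comparison. The labels name no dose, duration, age or sex, and do not give the drugs of the multi-target group. That group was therefore left out of the comparison of FK506 with other arms, and its values may not be independent of FK506. Each library came from 1 mouse, named here by the number in its title, and nothing else says how far the mice of a group were kept or processed apart, so p-values measure the spread between these samples.

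MRL/lpr mice carry the lpr mutation of Fas, the death receptor that removes activated lymphocytes, and develop lymphoproliferation, autoantibodies and a lupus-like nephritis. FK506 (tacrolimus) binds the immunophilin FKBP12, and the complex inhibits calcineurin, the phosphatase that lets NFAT factors enter the nucleus of an activated T cell and switch on cytokine genes such as interleukin 2 and interferon gamma. In the nephritic kidney, interferon gamma is known for inducing antigen presentation and GTPase genes in tubular, endothelial and myeloid cells, while immune complexes act on myeloid cells through Fc receptors and complement.

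The summed reads of the 6 libraries lay between 32421226 and 40771078, within the 28939845 to 41066953 of all 18. Healthy mice were the most alike, with a median within-group SD of 0.08 log2 per gene, against 0.17 in FK506 and 0.22 in vehicle mice. In FK506 mouse 12, adrenal markers averaged 3.41 log2 above healthy, against 0.18 and 0.00 in FK506 mice 3 and 24, with the steroid enzyme gene Cyp11a1 at 11.37 in mouse 12 and at 5.49 and 5.73 in the others. Limma called 0 of 11 adrenal markers (2 higher and 1 lower at an unadjusted p under 0.05). The source of the high values in mouse 12 was not tested, nor was its part in other results beyond leaving out mouse 12. Vehicle mouse 17 stood apart as well, with adipocyte markers 5.47 and urothelial markers 3.17 above healthy, against -0.26 and 0 and against -0.12 and 0.05 in vehicle mice 7 and 36, and this library is part of every vehicle value below. The source of these high values was not tested, nor was its part in the vehicle values beyond leaving out the mouse. Nephron genes that define kidney cortex were at high levels, with the sodium-glucose transporter gene Slc5a2 between 13.20 and 14.63 in the 6 libraries.

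Under FK506, 1093 of 15035 genes (7.27%) differed from the healthy level at a Benjamini-Hochberg adjusted p under 0.05 in a limma model of group means, and these are the genes called below. Of these, 861 rose (5.73%) and 232 fell (1.54%), so 78.8% of the calls were higher than healthy. The 2 rescalings of the libraries that were tried moved this share to 53.4% (quantile normalization) and 53.3% (equal medians). They also shifted the median difference of all genes by -0.104 and -0.117 log2. Differences are given in log2 units, where 1 unit is 2-fold. Most calls were under 1 log2: 160 rises and 52 falls were under 0.5, and 324 rises and 99 falls lay between 0.5 and 1. At the far end 57 genes rose by more than 3 log2 and 1 fell by more than 3. A stricter limma test (treat) for a distance of more than 1 log2 from healthy was passed by 32 genes (0.213%), all of them higher. At the other end, the 95% interval of the difference lay within 1 log2 of 0 for 11531 genes (76.7%).

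The same model called 3369 genes (22.4%) between vehicle-treated MRL/lpr mice and the same healthy mice, 2353 higher (15.7%) and 1016 lower (6.76%), so 69.8% were higher. This split turned under rescaling, to 43.7% higher with quantile normalization and 37% with equal medians. That count was 1490 without vehicle mouse 36, and 1744, 1824 and 1863 without healthy mouse 1, 2 and 3. The FK506 and vehicle comparisons share the healthy mice, so only their values are set side by side. The test of the drug itself, FK506 minus vehicle, called 0 genes with limma (2987 at an unadjusted p under 0.05, smallest adjusted p = 0.171), and 1 without vehicle mouse 7. It called 2326 with array weights, whose estimation stopped before convergence. A distance from healthy that is smaller under FK506 than under vehicle is therefore described by its values and is not shown as a difference between the drug and vehicle.

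The count for FK506 depends on which mice and groups enter the fit. It was 363 without FK506 mouse 3, 239 without mouse 12, 1162 without mouse 24, and 266, 286 and 354 without healthy mouse 1, 2 and 3. Fitting only the FK506 and healthy groups, whose spread is smaller, gave 3673 calls, 2531 higher and 1142 lower of 15035 genes. All list counts from this 2-group fit below stand beside these numbers, not beside the shares of the main fit. Single mice showed the same order of size: FK506 mice 3, 12 and 24 had 833, 929 and 567 genes more than 1 log2 above the healthy mean and 392, 338 and 140 below it. Vehicle mice 7, 17 and 36 had 868, 1173 and 2135 above and 278, 171 and 1121 below, whereas a healthy mouse set against the other healthy mice had 7 to 30 above and 4 to 45 below. FK506 mouse 24 lay nearest to healthy among the treated mice, and vehicle mouse 36 lay farthest of all.

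**Figure D1:**
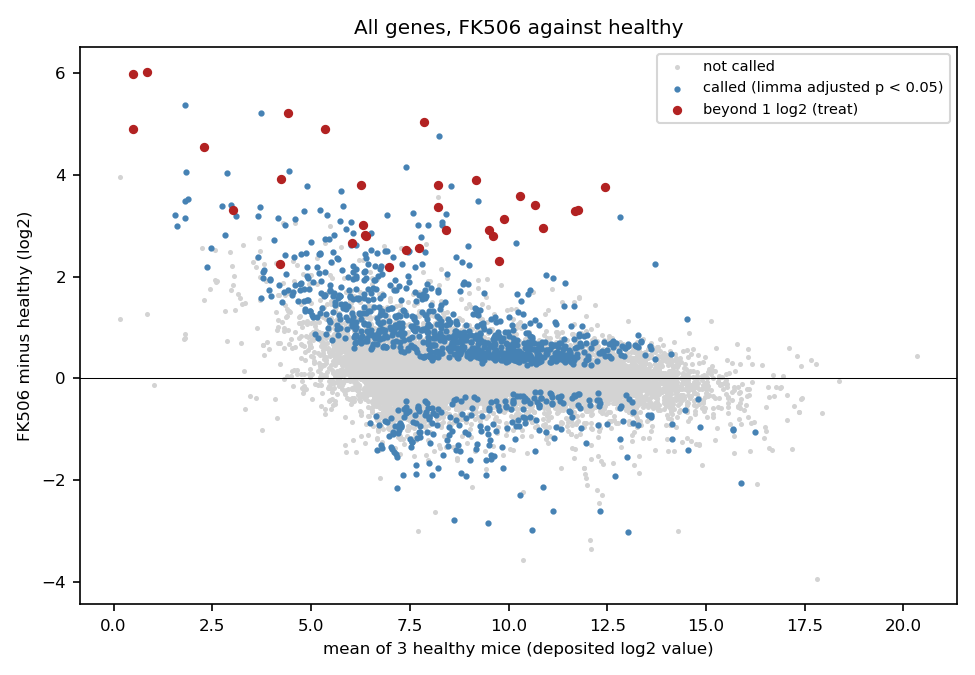
Difference between FK506-treated and healthy mice (vertical axis, log2) against the mean of the 3 healthy mice (horizontal axis, deposited log2 value), 1 point per gene. Grey genes were not called, blue genes were called by limma, and the 32 red genes lay more than 1 log2 from healthy by the treat test, all above the zero line.

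Antigen presentation genes formed the clearest part of what remained. Of the 10 MHC class II genes, which load and display peptides to CD4 T cells, 8 rose and 0 fell, with a median of 3.15 log2 against 0.08 for all genes. The vehicle group had 9 of 10 called and a median of 4.31. Of all genes, 5.73% rose and 1.54% fell under FK506, and 15.7% rose and 6.76% fell under vehicle. The counts of every list below stand beside these shares. Cd74, the invariant chain that guides class II molecules to the endosome, stood at 12.17, 12.45 and 12.68 in healthy mice 1, 2 and 3 and at 16.21, 15.97 and 16.43 in FK506 mice 3, 12 and 24. It rose by 3.77 ± 0.44 (SE), or 13.6-fold (limma adjusted p = 0.000319), and vehicle mice held 17.05 to 17.74. All FK506 mice lay far above the healthy mice and below all vehicle mice.

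H2-DMb1 (chr17:34153072-34160230, GRCm38), a subunit of the peptide exchange factor of the class II pathway, was the most even of them. Its values were 8.30, 8.20 and 8.13 in healthy mice and 11.73, 11.54 and 11.49 in FK506 mice, a rise of 3.37 ± 0.28 (limma adjusted p = 3.63e-05). The class II chain genes H2-Aa and H2-Ab1 rose by 3.41 and 3.58, and Ciita, the master activator of class II transcription, rose by 2.25. The peptide exchange modulators H2-Ob and H2-Oa differed by 0.56 and -0.15 and were not called. With any 1 FK506 or healthy mouse left out, 7 or 8 class II genes were called.

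The promoter of H2-Aa is shown because class II genes rose together, and class II promoters are known for a Y box, a site bound by the NF-Y factor. The 250 bases before the start are chr17:34287824-34288073 on the minus strand (RefSeq, GRCm38.p6), with the Y box core in capitals, its first base 51 bases before the start:
H2-Aa: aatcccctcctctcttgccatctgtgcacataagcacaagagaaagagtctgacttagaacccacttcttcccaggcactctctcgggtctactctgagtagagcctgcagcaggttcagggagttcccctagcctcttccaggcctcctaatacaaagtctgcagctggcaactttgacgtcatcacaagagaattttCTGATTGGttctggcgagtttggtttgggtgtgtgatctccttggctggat
The motif CTGATTGG, searched on both strands in windows of 250 bases before to 50 after the start, was found in 706 of 11201 promoters of all tested genes (6.3%). It was found in 53 of 607 promoters of genes that rose (8.73%) and in 9 of 165 of genes that fell (5.45%). A match describes these letters and is not evidence of a bound site.

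Of the 14 MHC class I and peptide loading genes, 11 rose and 0 fell, beside 5.73% of all genes that rose. The median was 2.06 (vehicle 14 called, beside 15.7% of all genes, median 3.27). In each fit that left out 1 FK506 or healthy mouse, 8 were called. H2-K1 (chr17:33996017-34000347), a classical class I heavy chain that presents peptide to CD8 T cells, read 11.60, 11.87 and 11.84 in healthy and 15.12, 14.91 and 15.19 in FK506 mice (3.31 ± 0.41, limma adjusted p = 0.000477). H2-D1 read 10.81, 10.88 and 10.94 in healthy mice and 13.81, 13.80 and 13.88 in FK506 mice (2.95 ± 0.32, limma adjusted p = 0.000212). The 3 FK506 mice differed by less than 0.3 log2 from each other in both genes.

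Psmb8 encodes an immunoproteasome subunit that cuts proteins into class I peptides. It rose from 7.88, 8.35 and 8.40 in healthy mice to 11.87, 12.03 and 12.12 in FK506 mice (3.79 ± 0.45, limma adjusted p = 0.000319). The class I activator Nlrc5 rose by 2.49, the light chain gene B2m by 2.24 and the peptide transporter genes Tap1 and Tap2 by 2.39 and 1.74. Psme1, Tapbp and Erap1 differed by 0.91, 0.94 and 0.62 without being called, though the groups did not overlap for any of the 14 genes. Non-overlap is common here: FK506 and healthy mice did not overlap for 46.2% of all genes, with FK506 above for 30.1%.

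Among interferon-gamma-induced genes, 10 of 18 rose and 0 fell, beside 5.73% of all genes that rose. The median was 2.03 (vehicle 18 called, beside 15.7% of all genes, median 3.71). Tgtp1 (chr11:48985327-48994172), an interferon-inducible GTPase of the IRG family that attacks the vacuoles of intracellular microbes, stood at 4.30, 5.70 and 6.07 in healthy mice and at 10, 10.12 and 10.63 in FK506 mice. It rose by 4.89 ± 0.63 (29.7-fold, limma adjusted p = 0.000541), with vehicle mice at 11.23 to 12.75. Tgtp2, a near-identical copy with which reads can be shared, rose by 3.31. The related GTPase gene Iigp1 rose by 5.03 ± 0.69 (limma adjusted p = 0.000888), from 6.90, 8.16 and 8.53 to 12.63, 12.58 and 13.46. Healthy mouse 1 was the lowest of the healthy mice for both genes.

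Irf1, the transcription factor that relays interferon gamma signals, read 8.59, 8.75 and 9.14 in healthy mice and 10.85, 11.09 and 11.37 in FK506 mice (2.28 ± 0.39, limma adjusted p = 0.00416). Irgm2 rose by 2.88 and Gbp2 by 3.79. Gbp6, a guanylate-binding protein gene, rose by 4.16 ± 0.84 (limma adjusted p = 0.0112) but lost its call without healthy mouse 1 (adjusted p = 0.0627). The chemokine genes Cxcl9 and Cxcl10, which draw T cells, differed by 1.96 and 1.42 and were not called. Without healthy mouse 1 the list count fell to 5 of 18, while the 2-group fit called 16.

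The promoter of Tgtp1 is shown as that of a leading interferon-gamma-induced gene, chr11:48992247-48992496 on the minus strand (RefSeq, GRCm38.p6), with the interferon-stimulated response element core (GAAA, any 2 bases, GAAA) in capitals, 77 bases before the start:
Tgtp1: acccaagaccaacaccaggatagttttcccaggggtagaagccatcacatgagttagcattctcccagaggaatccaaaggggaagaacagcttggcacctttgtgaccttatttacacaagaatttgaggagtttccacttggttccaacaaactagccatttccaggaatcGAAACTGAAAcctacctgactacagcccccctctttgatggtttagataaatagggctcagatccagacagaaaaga
Both strands were searched in windows of 250 bases before to 50 after the start. The motif lay in 416 of 11201 promoters of all tested genes (3.71%), in 47 of 607 of genes that rose (7.74%) and in 6 of 165 of genes that fell (3.64%). These shares are a description of the letters in the windows.

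Of 25 type I interferon-stimulated genes measured, 3 rose and 0 fell, beside 5.73% of all genes that rose. The median was 1.01, whereas the vehicle group had 22 called and a median of 2.25. The 3 were Irf9, a subunit of the ISGF3 factor (1.17 ± 0.26, limma adjusted p = 0.0176), Ifih1, the RNA sensor MDA5 (1.12 ± 0.27, limma adjusted p = 0.0225), and Bst2, the membrane tether tetherin (2.23 ± 0.55, limma adjusted p = 0.0258). Isg15, Irf7 and Ifit1 differed by 1.70, 1.91 and 1.85 and were not called, and Mx1 and Ifi27l2a lay at -0.08 and -0.19. FK506 mice lay wholly above healthy mice for 19 of the 25, against 30.1% of all genes. The count of calls was 0 without FK506 mouse 12, healthy mouse 1 or healthy mouse 2, and 18 when only the FK506 and healthy groups were fitted. Bst2 lost its call in all 6 fits that left out a mouse (limma adjusted p between 0.0595 and 0.097). Whether this list differs from the interferon-gamma list was not tested.

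**Figure D2:**
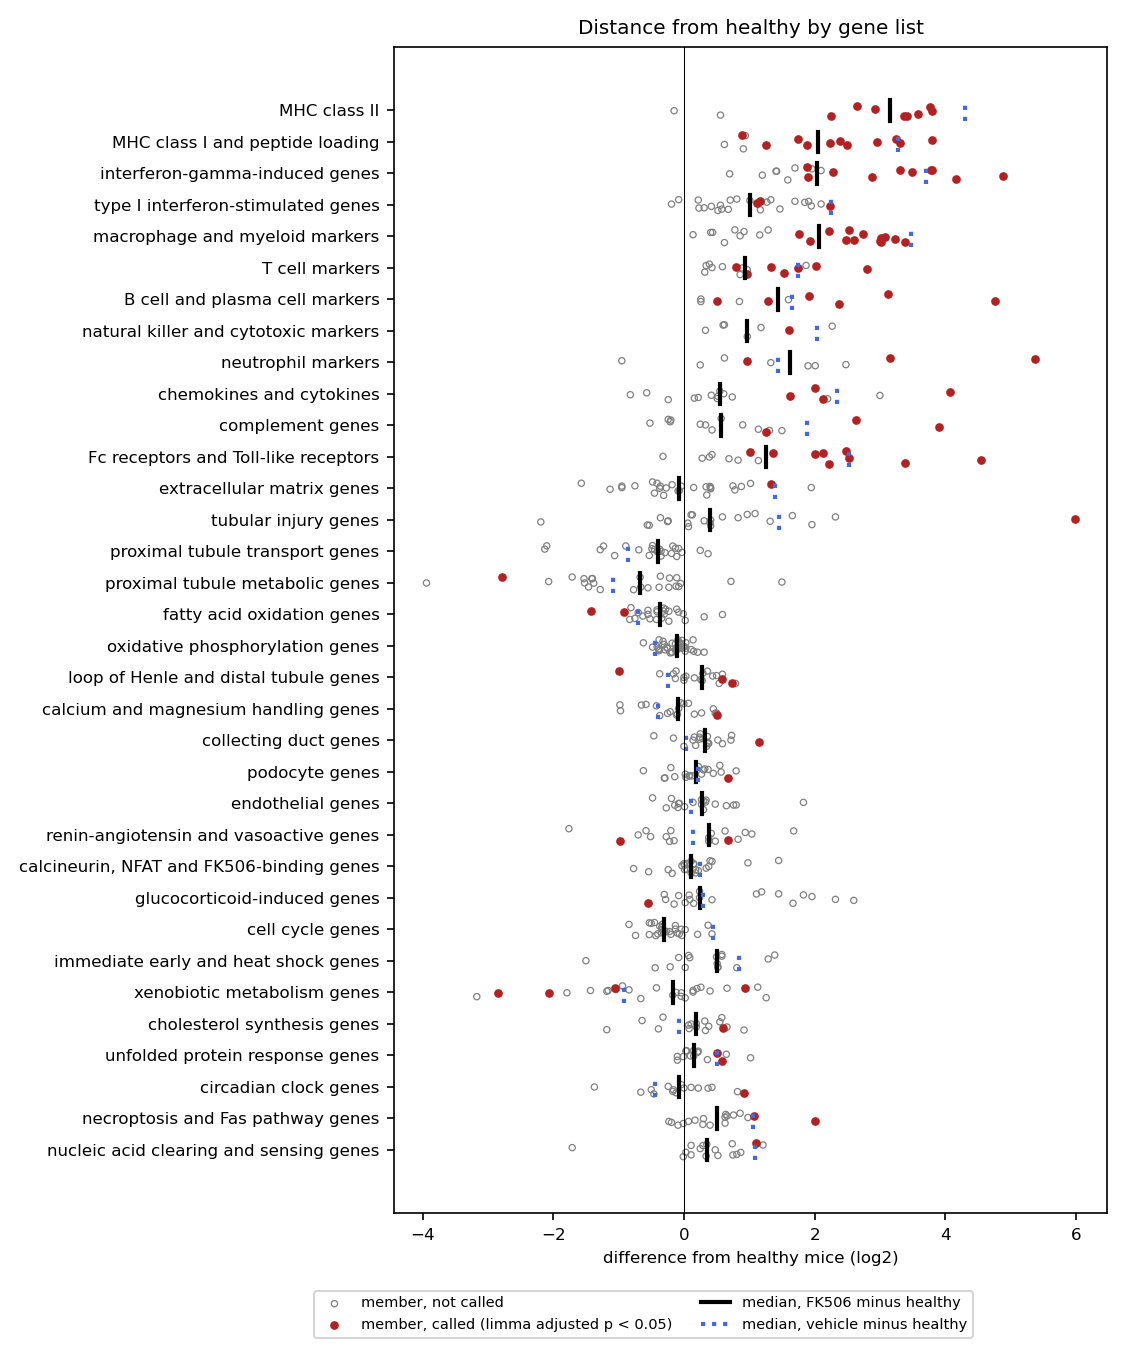
Difference from healthy mice (horizontal axis, log2) for each measured member of the pathway and cell type lists, as 1 point per gene for FK506 minus healthy. Filled red points were called by limma, black bars are list medians under FK506 and dotted blue bars are list medians under vehicle; the MHC class II median lies at 3.15 under FK506 and 4.31 under vehicle.

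Macrophage and myeloid markers remained above healthy. Of 22 measured, 13 rose and 0 fell, beside 5.73% of all genes that rose. The median was 2.07 (vehicle 21 called, beside 15.7% of all genes, median 3.47). In bulk tissue, more cells of a type and more RNA per cell cannot be told apart. Ctss, a lysosomal protease of antigen-presenting cells, stood at 8.10, 8.46 and 8.73 in healthy mice and at 11.32, 11.91 and 11.76 in FK506 mice, a rise of 3.23 ± 0.48 (limma adjusted p = 0.00149). C1qa, a chain of the complement recognition protein C1q that macrophages secrete, rose by 3.02 ± 0.47 (limma adjusted p = 0.00213), from 7.85, 8.47 and 8.63 to 11.05, 11.63 and 11.33. FK506 mouse 3 was the lowest of the treated mice for both genes, yet above every healthy mouse by more than 2 log2.

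The lysozyme gene Lyz2 rose by 3.08, the Fc receptor gene Fcgr4 by 3.38 and the pore-forming protein gene Mpeg1 by 2.61. The resident macrophage genes Emr1 (F4/80), Mrc1 and Csf1r differed by 1.29, 0.41 and 0.14 and were not called. The call count was 7 without FK506 mouse 12 or healthy mouse 1, so it moved by more than 1.5 times with these mice, while the list median stayed between 1.98 and 2.20.

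Among receptors for immune complexes and nucleic acids, 9 of 16 Fc and Toll-like receptor genes rose and 0 fell. Of all genes 5.73% rose. The median was 1.25 (vehicle 15 called, beside 15.7% of all genes, median 2.53). Tlr8, an endosomal RNA sensor, had only 5, 2 and 8 reads in healthy mice 1, 2 and 3 and 71, 144 and 88 in FK506 mice 3, 12 and 24. Summed over the groups this is a ratio of 21.1 (95% counting interval 12.6 to 38.2), and limma put the rise at 4.55 ± 0.47 (adjusted p = 0.000151). Tlr7, the other RNA-sensing receptor of this pair, rose by 2.0 ± 0.26 (limma adjusted p = 0.000605), from 5.73, 6.21 and 5.86 to 8.09, 7.99 and 7.72. Tlr13 rose by 2.13 and the chaperone gene Unc93b1, which delivers these receptors to endosomes, by 1.37. Tlr9 and Tlr3 differed by 0.69 and 0.43, and Fcgr2b, the inhibitory Fc receptor, by -0.32, none of them called. The count was 5 without FK506 mouse 12 or healthy mouse 1.

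Among T cell markers, 7 of 16 rose and 0 fell, beside 5.73% of all genes that rose. The median was 0.93 (vehicle 14 called, beside 15.7% of all genes, median 1.74). Cd4, the helper T cell co-receptor, read 6.5, 6.70 and 6.86 in healthy mice, 8.90, 8.31 and 8.90 in FK506 mice and 9.13, 9.92 and 10.03 in vehicle mice. It rose by 2.02 ± 0.37 over healthy (limma adjusted p = 0.00667) and kept its call whichever FK506 or healthy mouse was left out. Pdcd1, the checkpoint receptor PD-1, rose by 2.81 ± 0.60 (limma adjusted p = 0.0140), from 2.38, 3.59 and 2.51 to 6.04, 5.49 and 5.38. The cytotoxic T cell genes Cd8a and Cd8b1 differed by 0.34 and 0.43 and were not called.

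The T cell count was 1 without FK506 mouse 3 or healthy mouse 1, and was 11 in the 2-group fit. Pdcd1 lost its call without FK506 mice 3 or 12 or healthy mice 1 or 3 (adjusted p between 0.0543 and 0.0712), and under quantile normalization. Of 7 natural killer and cytotoxic markers only Gzmk rose (1.61 ± 0.34, limma adjusted p = 0.0129), a call lost without FK506 mouse 12 or healthy mouse 2 or 3 (adjusted p between 0.0511 and 0.0585), and under quantile normalization (0.75, adjusted p = 0.205). All 7 lay above 0, with a median of 0.97 against 2.03 in the vehicle group, where all 7 were called. These counts stand beside 5.73% of all genes that rose, and 15.7% under vehicle.

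B cell and plasma cell markers had similar list medians under FK506 and vehicle. Of 10 measured, 6 rose and 0 fell, with a median of 1.44 under FK506 and 1.65 under vehicle, where 7 were called. Of all genes 5.73% rose, and 15.7% under vehicle. Igj, the joining chain of polymeric antibodies, read 8.08, 8.14 and 8.49 in healthy mice, 14.26, 12.56 and 12.16 in FK506 mice and 11.31, 11.54 and 14.08 in vehicle mice. The rise of 4.76 ± 0.78 (limma adjusted p = 0.00312) is 27-fold, and FK506 and vehicle mice overlapped. Mzb1, a chaperone of antibody secretion, rose by 3.13 ± 0.52 (limma adjusted p = 0.00330), from 4.38, 4.66 and 4.77 to 8.57, 7.41 and 7.22. FK506 mouse 3 was the highest of the treated mice for both.

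The B cell receptor genes Cd79a and Cd79b rose by 2.37 and 1.91, and Cd22, an inhibitory B cell receptor, rose by 1.28 ± 0.20 (limma adjusted p = 0.00237). For Cd22 the FK506 mice, at 7.71, 7.44 and 7.63, all lay below the vehicle mice, at 8.06, 7.96 and 8.18. Pou2af1, a B cell transcription coactivator named after its values were seen, rose by 3.92 ± 0.58 (limma adjusted p = 0.00146). Prdm1, a regulator of plasma cell fate, differed by 0.26 and was not called. FK506 minus vehicle was 0.68 for Igj and 0.34 for Mzb1 (limma adjusted p = 0.647 and 0.743). Without FK506 mouse 12 the list count was 3.

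Pigr (chr1:130826684-130852249), the epithelial receptor that carries polymeric antibody across a cell, was also named after its values were seen. It read 11.85, 11.66 and 11.52 in healthy mice, 15.56, 14.87 and 14.48 in FK506 mice and 15.30, 15.67 and 14.16 in vehicle mice. The rise over healthy was 3.29 ± 0.42 (limma adjusted p = 0.000541), with the FK506 and vehicle mice overlapping.

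Cxcl13, the chemokine that gathers B cells in lymphoid follicles, rose by 4.07 ± 0.64 (16.8-fold, limma adjusted p = 0.00250), from 4.70, 4.08 and 4.58 to 8.99, 9.26 and 7.32. Vehicle mice at 7.24, 9.43 and 8.63 overlapped the FK506 mice. It was 1 of 4 chemokine and cytokine genes of 17 that rose, with Il1b (2.01), Ccl4 (2.13) and Tnfsf13b (1.62), the B cell survival factor BAFF, and 0 fell. The list median of 0.55 compares with 2.34 under vehicle, where 10 were called. Of all genes 5.73% rose, and 15.7% under vehicle. Ccl2, the monocyte attractant, differed from healthy by -0.57 under FK506 and by 2.5 under vehicle, and was not called against healthy in the FK506 mice. Without FK506 mouse 12 or healthy mouse 1 only 1 of the 17 was called, and the 2-group fit called 8 higher and 1 lower. Ltb, a lymphotoxin chain of the lymphoid stroma list, rose by 1.63 ± 0.45 (limma adjusted p = 0.0423), a call lost in each of the 6 fits that left out 1 mouse (adjusted p between 0.0762 and 0.143) and under both rescalings.

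Complement genes divided by member. Of 15 measured, 3 rose and 0 fell, beside 5.73% of all genes that rose. The median was 0.57 (vehicle 9 called, beside 15.7% of all genes, median 1.88). C4b (chr17:34728380-34743882), the component C4 of the classical pathway, stood at 9.38, 9.17 and 8.97 in healthy mice, 13.08, 13.65 and 12.50 in FK506 mice and 14.50, 13.54 and 12.80 in vehicle mice. It rose by 3.90 ± 0.40 (14.9-fold, limma adjusted p = 0.000149), and FK506 and vehicle mice overlapped. Its near-identical copy C4a, with which reads can be shared, differed by 0.52 and was not called. C3ar1, the C3a receptor of myeloid cells, rose by 2.63 ± 0.43 (limma adjusted p = 0.00297). C3 itself differed by 1.5 and was not called, against 3.97 under vehicle, and Cfb and C2 lay at -0.20 and -0.24.

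Several of the largest rises belonged to acute phase and myeloid genes with almost no reads in healthy mice. Fpr2 (chr17:17887824-17893952), a formyl peptide receptor of phagocytes, had 2, 2 and 1 reads in healthy mice and 54, 119 and 146 in FK506 mice, a ratio of 66.7 (95% counting interval 28.3 to 207). Saa3 (chr7:46711998-46715700), an acute phase apolipoprotein made by injured epithelium and macrophages, had 1, 2 and 1 reads in healthy mice and 164, 59 and 45 in FK506 mice, a ratio of 70 (27 to 259). Limma gave rises of 6.01 ± 0.53 and 5.98 ± 0.52, each with an adjusted p of 3.63e-05. Both genes were called in every alternative that tested them (the filter on low genes removes them), while the healthy levels stand for a handful of reads and counting intervals cover counting error only.

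The promoter of Saa3 is shown as that of an acute phase gene among the largest rises, chr7:46715677-46715926 on the minus strand (RefSeq, GRCm38.p6), with its match to the same interferon element in capitals, 125 bases before the start:
Saa3: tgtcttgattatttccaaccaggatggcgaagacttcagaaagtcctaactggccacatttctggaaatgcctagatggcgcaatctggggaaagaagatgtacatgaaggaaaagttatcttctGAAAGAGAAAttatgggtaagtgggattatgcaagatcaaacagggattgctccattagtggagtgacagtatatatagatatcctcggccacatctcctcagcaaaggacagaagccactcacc

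Fpr1, the paralog of Fpr2, had 2, 1 and 1 reads in healthy mice and 14, 43 and 77 in FK506 mice, a ratio of 35 (95% counting interval 13.4 to 130). Slpi, a secreted inhibitor of neutrophil elastase, rose by 5.20 ± 0.88 (36.9-fold, limma adjusted p = 0.00372), from 3.76, 3.59 and 3.88 to 10.37, 8.05 and 8.42. FK506 mouse 3 was the highest for Slpi and mouse 24 for Fpr1, and no treated mouse overlapped the healthy ones.

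Neutrophil genes were highest in 1 mouse. S100a8, a calprotectin subunit, had 1, 5 and 6 reads in healthy mice and 52, 522 and 68 in FK506 mice 3, 12 and 24, and rose by 5.37 ± 0.98 (limma adjusted p = 0.00627). Its partner S100a9 read 4.05, 4.34 and 4.08 in healthy mice and 6.83, 9.22 and 5.87 in FK506 mice, a rise of 3.15 ± 0.81 (limma adjusted p = 0.0329). Mouse 12, which also held the adrenal markers, was far above the others for both. The 10 measured neutrophil markers averaged 3.28 above healthy in mouse 12 and 0.97 and 0.89 in mice 3 and 24. Of the 10, 3 were called higher, the third being Csf3r (0.96), beside 5.73% of all genes that rose. Without mouse 12, the S100a9 difference was 2.19 and not called (limma adjusted p = 0.154). Its call was also lost without FK506 mouse 3, without any healthy mouse and under quantile normalization. Without mouse 12 only S100a8 of the list was called. The list count was also 1 without healthy mouse 1 or 2.

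**Figure D3:**
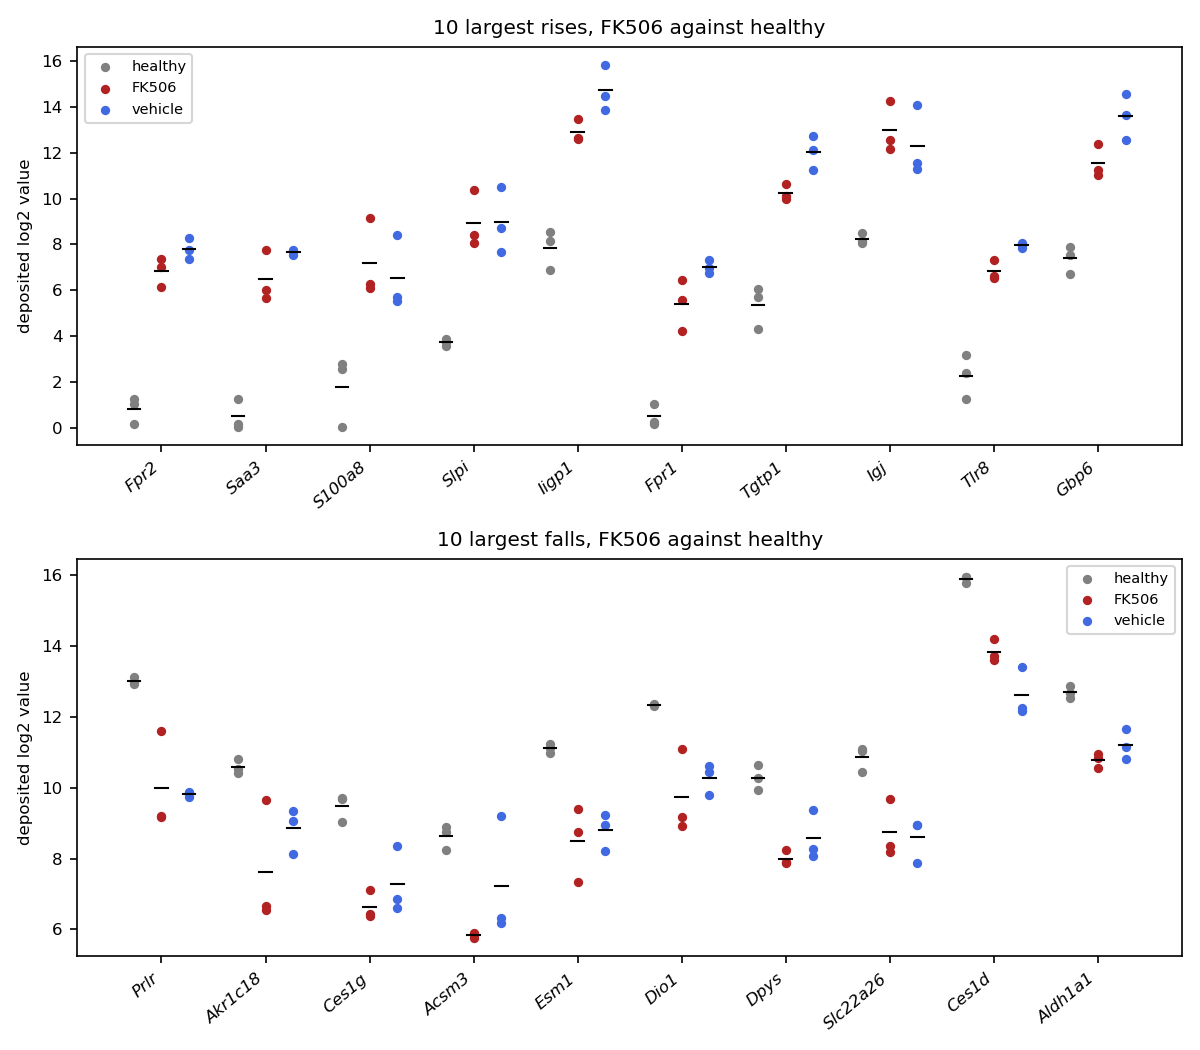
Deposited log2 value in each healthy (grey), FK506 (red) and vehicle (blue) mouse for the 10 called genes with the largest rises and the 10 with the largest falls under FK506 against healthy, numbered gene models left out, with group means as bars. FK506 and healthy mice do not overlap for these genes, since the choice required it; FK506 mice overlap the vehicle mice for Slpi, Igj and Prlr, among others.

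The 32 genes more than 1 log2 from healthy by the treat test included 16 H2 genes. These were the class II genes H2-Aa, H2-Ab1, H2-DMa, H2-DMb1 and H2-DMb2, the pseudogene H2-Ea-ps, and the class I genes H2-K1, H2-D1, H2-L, H2-Q1, H2-Q4, H2-Q6, H2-Q7, H2-Q8, H2-Q9 and H2-Q10. H2-Q1, H2-Q4 and H2-Q10 rose by 3.01, 2.80 and 2.19. Class I H2 genes are near-identical copies that can share reads, so the division of signal between H2-L, H2-D1 and the H2-Q genes is uncertain. The rest were named because they passed this test: C4b, Cd74, Fpr1, Fpr2, Iigp1, Pigr, Pou2af1, Psmb8, Saa3, Tgtp1, Tlr8, Spn, Wfdc17, Tnfaip8l3, Ezh1 and a numbered gene model. The treat test passed 12, 7 and 7 genes without FK506 mouse 3, 12 and 24, and 7, 11 and 12 without healthy mouse 1, 2 and 3. Those that passed in all 6 such fits were C4b, Ezh1, Fpr2, H2-DMb1, H2-DMb2, Saa3 and Tlr8. The other 14 H2 genes passed in 0 of the 6.

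Ezh1 (chr11:101191115-101226463), a histone H3 methyltransferase of the Polycomb group, had the smallest p of all genes. It read 9.63, 9.75 and 9.93 in healthy mice and 12.08, 12.11 and 12.04 in FK506 mice, a rise of 2.31 ± 0.15 (limma adjusted p = 1.46e-06). Vehicle mice read 12.15, 11.92 and 11.95, and the MMF, prednisone and multi-target groups averaged 12.26, 12.21 and 12.11. All MRL/lpr mice lay between 11.85 and 12.48, above all 3 healthy mice.

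Fas, the gene mutated in this strain, read 6.63, 6.85 and 6.78 in healthy mice and 7.76, 7.73 and 7.96 in FK506 mice, a rise of 1.07 ± 0.15 (limma adjusted p = 0.000869). A gene-level value does not show the lpr insertion, so it does not check the genotype. Of 18 necroptosis and Fas pathway genes, Fas and the TNF receptor gene Tnfrsf1b (2.01 ± 0.31, limma adjusted p = 0.00204) rose and 0 fell, with a median of 0.51 (vehicle 12 called, median 1.06). Of all genes 5.73% rose, and 15.7% under vehicle. The 2-group fit called 9 of the 18, beside 2531 of all 15035 genes called higher. Aim2, a DNA sensor, was the 1 riser among 17 nucleic acid clearing and sensing genes (1.11 ± 0.24, limma adjusted p = 0.0158), a call lost without FK506 mouse 3 or 12 or healthy mouse 1 or 3 (adjusted p between 0.0585 and 0.0771). That count of 1 in 17 is near the 5.73% of all genes that rose.

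Enzymes of lipid, drug, steroid and thyroid hormone metabolism were among the 10 largest falls. Aldh1a1 (chr19:20492715-20643465), a retinaldehyde dehydrogenase, read 12.68, 12.88 and 12.54 in healthy mice and 10.56, 10.84 and 10.96 in FK506 mice. It fell by 1.91 ± 0.21 (3.76-fold, limma adjusted p = 0.000204), with vehicle mice at 11.14, 10.80 and 11.65. Ces1d, a carboxylesterase that hydrolyses lipid esters and drugs, fell by 2.06 ± 0.39 (limma adjusted p = 0.00807), from 15.79, 15.94 and 15.96 to 13.72, 13.60 and 14.21. These were the only ones of the 10 largest falls whose calls held whichever FK506 or healthy mouse was left out.

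Prlr (chr15:10177238-10349180), the prolactin receptor, had the largest fall. It read 13.12, 12.99 and 12.92 in healthy mice, 9.18, 9.21 and 11.60 in FK506 mice and 9.75, 9.87 and 9.84 in vehicle mice, a difference of -3.02 ± 0.76 (limma adjusted p = 0.0296). FK506 mouse 24 lay nearer to healthy than the others. The same mouse was nearest to healthy for Akr1c18, a 20-alpha-hydroxysteroid dehydrogenase (6.65, 6.55 and 9.66 against 10.42 to 10.81), and for Dio1, the thyroxine deiodinase (9.17, 8.92 and 11.08 against 12.30 to 12.36). Prlr, Akr1c18, Dio1, Esm1, Dpys and Slc22a26 each lost their call without FK506 mouse 3 or 12 or any healthy mouse, with adjusted p between 0.0551 (Slc22a26) and 0.199 (Akr1c18). Akr1c18 was called in 6 of 16 alternatives, being lost also under quantile normalization, the filter on low genes, no trend and the spread without vehicle mouse 17 or the vehicle group. Ces1g (-2.84) lost it without FK506 mouse 12 or healthy mouse 2 (0.0587 at most).

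Proximal tubule genes as lists lay below healthy. Their calls stand beside 1.54% of all genes that fell, and 6.76% under vehicle. Of 25 transport genes limma called 0 (6 lower and 0 higher at an unadjusted p under 0.05, and at most 1 called lower with a mouse left out), with 23 below 0 and a median of -0.40, against -0.85 and 7 falls under vehicle. Slc5a2, the glucose transporter SGLT2, read 14.59, 14.63 and 14.60 in healthy mice and 13.46, 13.20 and 13.47 in FK506 mice, a difference of -1.23 ± 0.44 that was not called (limma adjusted p = 0.0995). Slc22a6, the organic anion transporter OAT1, differed by -1.28 ± 0.46 (limma adjusted p = 0.101). The endocytic receptor genes Lrp2 and Cubn differed by -0.17 and -0.53. The FK506 and healthy mice did not overlap for 11 of these genes on the lower side, against 16.1% of all genes, and the 2-group fit called 9 lower.

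Of 25 proximal tubule metabolic genes 1 fell and 0 rose, beside 1.54% of all genes that fell. The median was -0.67 (vehicle 11 lower, beside 6.76% of all genes, median -1.09). The 1 was Acsm3 (chr7:119760923-119787513), a medium-chain acyl-CoA synthetase, which read 8.76, 8.88 and 8.23 in healthy mice and 5.91, 5.75 and 5.83 in FK506 mice (-2.79 ± 0.60, limma adjusted p = 0.0145). Its call was lost without FK506 mouse 12 or healthy mouse 1 or 2 (limma adjusted p between 0.0629 and 0.0647). The androgen-regulated gene Kap read 12.14, 12.07 and 17.42 in FK506 mice against 17.75 to 17.87 in healthy mice, a difference of -3.94 that was not called, with mouse 24 near healthy. The gluconeogenic genes G6pc and Pck1 differed by -0.23 and -0.55. The 2-group fit called 13 of the 25 lower.

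Fatty acid oxidation genes had 2 falls among 26, both peroxisomal thiolases: Acaa1a (-0.92 ± 0.18, limma adjusted p = 0.00890) and Acaa1b (-1.42 ± 0.34, limma adjusted p = 0.0250). Of all genes 1.54% fell, and 6.76% under vehicle. The list median was -0.37, against -0.70 and 13 falls under vehicle, and the 2-group fit called 11 lower and 1 higher. Acaa1a lost its call without FK506 mouse 12 (limma adjusted p = 0.0568), and Acaa1b without FK506 mouse 3 or 12 or any healthy mouse (0.0735 to 0.118). The mitochondrial entry enzyme gene Cpt1a differed by -0.42 and the regulator gene Ppara by -0.08.

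Oxidative phosphorylation genes encode the mitochondrial respiratory chain and ATP synthase. Limma called 0 of 39 (1 higher and 4 lower at an unadjusted p under 0.05), the median was -0.11, and the 95% interval lay within 1 log2 of 0 for 38 of 39, against 76.7% of all genes. Under vehicle 17 fell, beside 6.76% of all genes, with a median of -0.44. The FK506 differences ran from -0.62 to 0.31, with Ndufs1, a subunit of complex I, as the lowest. In the 2-group fit 7 were called lower and 1 higher, beside 1142 lower and 2531 higher of all 15035 genes.

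Matrix genes had 12 rises in vehicle mice and a share of calls near that of all genes under FK506. Of 28 extracellular matrix genes, 1 rose, 0 fell and the median was -0.08, beside 5.73% of all genes that rose. Under vehicle 12 rose, beside 15.7% of all genes, with a median of 1.39. Tgfbi, a matrix protein induced by TGF-beta, was the 1 that rose (1.33 ± 0.36, limma adjusted p = 0.0397), and it lost its call under both rescalings, without FK506 mouse 12 or 24 and without any healthy mouse (0.0600 to 0.182 in the fits with a mouse left out). The collagen genes Col1a1, Col3a1 and Col1a2 differed by -0.37, -1.13 and -0.45, against 2.08, 1.84 and 1.73 under vehicle, and fibronectin (Fn1) by -1.57, none called against healthy. The 2-group fit called 5 matrix genes higher and 6 lower, beside 2531 higher and 1142 lower of all 15035 genes. Vehicle mouse 36 had the highest matrix mean, 2.61 above healthy, against 0.69 and 1.06 in vehicle mice 7 and 17.

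Of 23 tubular injury genes 1 rose, Saa3, near the 5.73% of all genes that rose, and 0 fell. The median was 0.40 (vehicle 10 called, beside 15.7% of all genes, median 1.45). Lcn2, the injury marker NGAL, differed by 2.32, Cdkn1a, the cell cycle inhibitor p21, by 1.96 ± 0.64 (limma adjusted p = 0.0763), and Havcr1, the marker KIM-1, by -2.19, none called. In the 2-group fit 9 were called higher and 2 lower, beside 2531 higher and 1142 lower of all 15035 genes. Of 28 cell cycle genes limma called 0 (also 0 at an unadjusted p under 0.05, and 1 lower in the 2-group fit), and 24 lay below 0, with a median of -0.31. Under vehicle 1 of 28 rose, with a median of 0.45 and means of -0.25, 0.56 and 1.11 in vehicle mice 7, 17 and 36. Mki67 and Cdk1 differed by -0.43 and -0.74. Precision was limited for both lists, since 4 of 23 injury genes and 15 of 28 cell cycle genes had an interval within 1 log2 of 0.

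**Figure D4:**
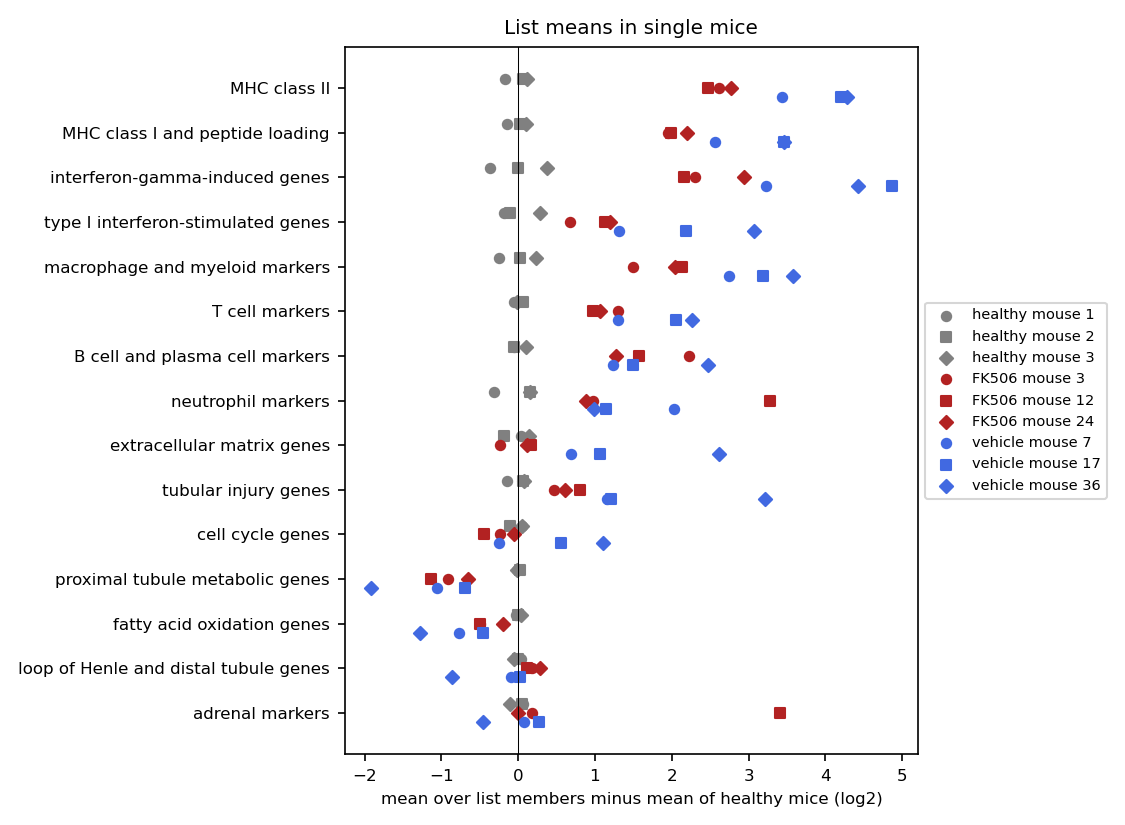
Mean over the members of each gene list minus the mean of the healthy mice (horizontal axis, log2), 1 symbol per mouse for healthy (grey), FK506 (red) and vehicle (blue) mice. FK506 mouse 12 stands apart for neutrophil (3.28) and adrenal markers (3.41), and vehicle mouse 36 for matrix (2.61) and injury genes (3.21).

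Some genes lay farther from healthy under FK506 than under vehicle. In the distal nephron, Stk39, the kinase SPAK that activates the sodium-chloride cotransporter, rose by 0.58 ± 0.14 (limma adjusted p = 0.0218), from 10.81, 10.69 and 10.67 to 11.34, 11.40 and 11.16. Vehicle mice read 10.95, 10.73 and 10.73. All 3 FK506 mice lay above all 6 healthy and vehicle mice, yet FK506 minus vehicle did not pass (0.50, limma adjusted p = 0.171).

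Among 20 loop of Henle and distal tubule genes Stk39 was 1 of 2 that rose, and Kcnj16, a basolateral potassium channel, was the 1 fall (-0.99 ± 0.27, limma adjusted p = 0.0393). Of all genes 5.73% rose and 1.54% fell. The list median was 0.27, against -0.24 and 0 calls under vehicle. The cotransporter genes Slc12a1 and Slc12a3 differed by 0.59 and 0.00, and Wnk4 by 0.36, none called. Each of the 3 calls was lost without FK506 mouse 3 or 12 or any healthy mouse (adjusted p between 0.0634 and 0.171), both rises were lost under equal medians, and the fall under quantile normalization. The 2-group fit called 8 higher and 1 lower.

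Of 20 collecting duct genes 1 rose, near the 5.73% of all genes that rose, and the list median was 0.32. The 1 was Atp6v1g3 (chr1:138273738-138289462), a proton pump subunit of intercalated cells. It read 10.72, 10.79 and 10.53 in healthy mice, 12.01, 12.01 and 11.46 in FK506 mice and 11.05, 11.06 and 10.43 in vehicle mice (1.15 ± 0.26 over healthy, limma adjusted p = 0.0184). Slc38a3 (chr9:107650634-107669530), the glutamine transporter SNAT3 of the proximal tubule, read 10.69, 10.15 and 10.11 in healthy, 12.23, 12.02 and 11.29 in FK506 and 10.65, 10.79 and 9.59 in vehicle mice (1.53 ± 0.39, limma adjusted p = 0.0297). FK506 minus vehicle was 0.98 and 1.5, with limma adjusted p = 0.171 for both. Each gene lost its call against healthy without FK506 mouse 3 or 12 or any healthy mouse (0.0553 to 0.123), Slc38a3 also under quantile normalization. The MMF, prednisone and multi-target groups also averaged above healthy for both, the last with drugs that the labels do not give. Their means for Atp6v1g3 were 11.71, 11.54 and 11.74, near the FK506 mean of 11.83. For Slc38a3 they were 11.49, 11.12 and 11.57, against 11.85 under FK506.

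Prob1, a proline-rich protein gene of little known function, was the steadiest of these. It read 10.11, 9.98 and 9.94 in healthy mice, 11.24, 11.24 and 11.15 in FK506 mice and 10.21, 10.23 and 9.78 in vehicle mice, a rise of 1.20 ± 0.19 over healthy (limma adjusted p = 0.00243) that held in every alternative. Its MMF, prednisone and multi-target means were 10.63, 10.79 and 10.69, between the vehicle mean of 10.07 and the FK506 mean of 11.21. Among higher genes Prob1 also had the smallest p in FK506 minus the mean of the vehicle, MMF and prednisone groups (0.71, limma adjusted p = 0.807).

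On the lower side, Mgl2, a lectin of alternatively activated macrophages and dendritic cells, read 7.39, 7.63 and 7.93 in healthy mice, 6.04, 5.39 and 5.90 in FK506 mice and 5.96, 7.15 and 7.20 in vehicle mice. It fell by 1.87 ± 0.37 (limma adjusted p = 0.00969), and lost its call without FK506 mouse 12 (0.0591). The MMF, prednisone and multi-target groups averaged 6.06, 5.87 and 6.0, near the FK506 mean of 5.78. Itga8, an integrin of mesangial cells, fell by 0.98 ± 0.26 (limma adjusted p = 0.0381), with FK506 mice at 8.46, 8.46 and 8.48 against 9.56, 9.13 and 9.64. Creb3l3, a transcription factor of lipid metabolism, fell by 1.34 ± 0.29 (limma adjusted p = 0.0148). FK506 minus vehicle was -1.0, -0.80 and -0.74 for the 3 genes (limma adjusted p between 0.171 and 0.194). Itga8 lost its call in all 6 fits that left out a mouse (0.0589 to 0.137) and Creb3l3 in 5 (0.0530 to 0.0681). The MMF, prednisone and multi-target means of Creb3l3 were 6.44, 6.62 and 6.24, against 6.19 under FK506 and 6.93 under vehicle. Those of Itga8 were 8.87, 8.93 and 8.83, between 8.47 under FK506 and 9.27 under vehicle.

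**Figure D5:**
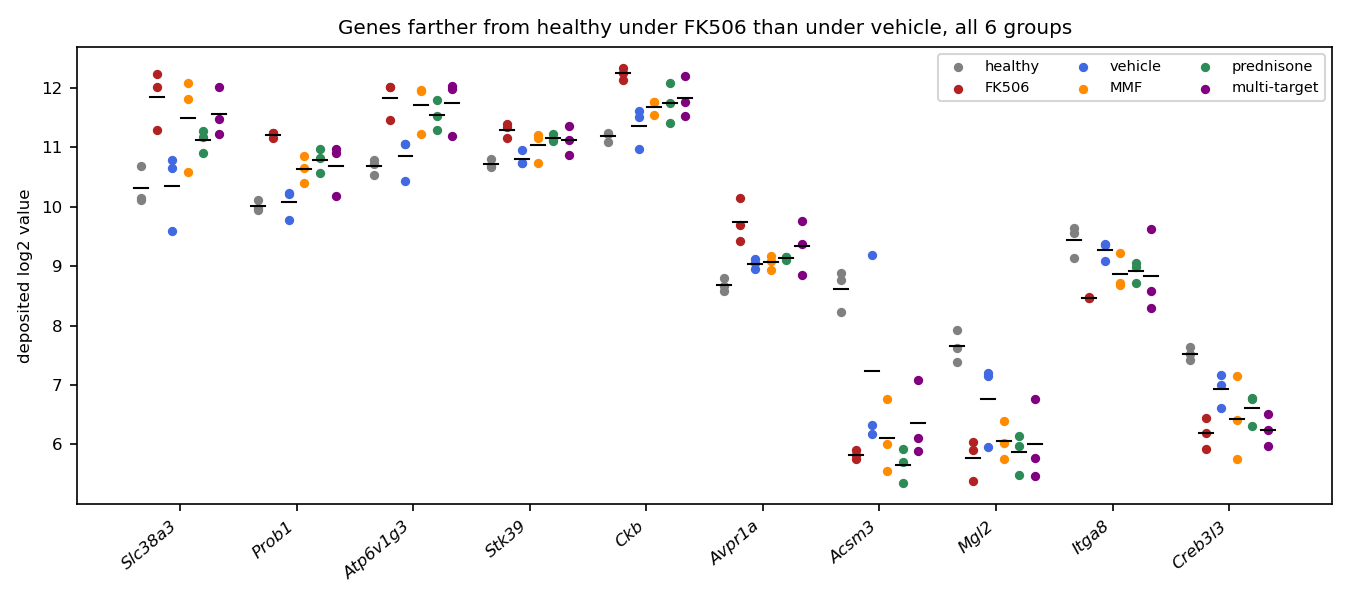
Deposited log2 value in every mouse of all 6 groups for 10 genes farther from healthy under FK506 than under vehicle, with group means as bars. FK506 mice (red) lie above healthy mice (grey) for the first 6 genes and below them for the last 4, a direction that the choice of genes fixed.

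Against the mean of the vehicle, MMF and prednisone groups, FK506 called 0 genes with limma (800 at an unadjusted p under 0.05, smallest adjusted p = 0.807). The count was 556 with array weights, whose estimation stopped before convergence. Beside Prob1, the smallest p on the upper side belonged to Tbc1d16, Avpr1a, Fpgs and Ckb. Avpr1a, the V1a vasopressin receptor, read 8.80, 8.59 and 8.66 in healthy mice and 9.42, 10.14 and 9.69 in FK506 mice, 1.07 ± 0.19 over healthy (limma adjusted p = 0.00638). Ckb, brain-type creatine kinase, read 11.22, 11.25 and 11.09 in healthy mice and 12.34, 12.26 and 12.14 in FK506 mice, 1.06 ± 0.19 over healthy (limma adjusted p = 0.00650). Avpr1a was highest in FK506 mouse 12, the mouse with high adrenal markers. Whether the calls of Avpr1a and Ckb hold with a mouse left out was not tested. On the lower side were Tmem140, Acpp, Sertad4, Il18 and Abca8b. None of these 5 was called against healthy, and their FK506 differences from healthy ran from -0.20 (Abca8b) to 0.99 (Sertad4), against 0.42 to 2.55 under vehicle.

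Calcineurin pathway genes were read as the drug's own pathway. Of 23 calcineurin, NFAT and FK506-binding genes, limma called 0 (3 higher and 1 lower at an unadjusted p under 0.05), the median was 0.11, and 19 had a 95% interval within 1 log2 of 0, against 76.7% of all genes. Rcan1, an NFAT target that feeds back on calcineurin, read 11.78, 12.16 and 12.12 in healthy mice, 11.31, 11.35 and 11.78 in FK506 mice and 12.10, 12.39 and 13.10 in vehicle mice. Its difference from healthy was -0.54 ± 0.35 (limma adjusted p = 0.360). Fkbp1a, which encodes FKBP12, differed by 0.15 ± 0.22, and Ppp3ca, the calcineurin catalytic subunit, by 0.04 ± 0.11, a sign that turned under both rescalings (-0.03 and -0.07). Fkbp5 differed by 1.45 ± 0.48 (limma adjusted p = 0.0770), highest in FK506 mouse 3 at 14.15 against 12.08 to 12.30 in healthy mice. The 2-group fit called 2 of the 23 higher and 2 lower, beside 2531 higher and 1142 lower of all 15035 genes.

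Genes tied to the known renal side effects of calcineurin inhibitors were also read. Ren1, renin, differed by -1.76 ± 0.88 (limma adjusted p = 0.223), with FK506 mice at 10.16, 9.92 and 10.36 below the healthy 11.68, 11.68 and 12.37, and vehicle mice at 10.45, 11.23 and 7.20. Trpm6, the distal magnesium channel, differed by 0.50 ± 0.34 (limma adjusted p = 0.384), and Calb1, the distal calcium buffer, by -0.58 ± 0.30 (limma adjusted p = 0.242). Within 19 renin-angiotensin and vasoactive genes, the natriuretic peptide receptor gene Npr1 rose by 0.67 ± 0.17 (limma adjusted p = 0.0296). Its call was lost without FK506 mouse 3 or 12 or any healthy mouse (0.0651 to 0.148), and under both rescalings. In all, 1 gene of the list rose and 1 fell. Of 20 calcium and magnesium handling genes 1 rose, Slc41a3 (0.50), a call lost under both rescalings and without FK506 mouse 3 or 12 or any healthy mouse (0.0766 to 0.140). The counts in both lists stand beside 5.73% of all genes that rose and 1.54% that fell.

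Glomerular and vascular lists held calls at about the share of all genes, of which 5.73% rose. Of 20 podocyte genes 1 rose, Cldn5, a tight junction claudin (0.68 ± 0.19, limma adjusted p = 0.0461), a call lost under both rescalings and in all 6 fits that left out a mouse (0.0612 to 0.173). The slit diaphragm gene Nphs1 differed by 0.08. Of 20 endothelial genes limma called 0 (5 higher and 0 lower at an unadjusted p under 0.05). The median was 0.27, with 14 intervals within 1 log2 of 0 (76.7% of all genes). The 2-group fit called 5 higher in each of these lists, beside 2531 of all 15035 genes.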

How the data were processed

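Kidney cortex RNA was measured by RNA-seq in 18 MRL mice, 3 in each of 6 groups; per the labels' protocols, tissue was flash frozen and TruSeq libraries took 1 ug of total RNA each. The authors deposited 1 table of normalized log2 values per gene; the submitters' processing notes name limma and mm10. No source used here gives the aligner or gene annotation. The deposited values correspond to whole reads within 0.001 reads for 75 to 75.5% of genes per library, from which the depths were read; how the other genes were summarised is unknown. Group means of all 18 libraries were fitted with limma 3.58.1 in R 4.3.3 (trended empirical Bayes, 12 residual degrees of freedom, Benjamini-Hochberg threshold 0.05, no filter), and treat tested distances above 1 log2. Using all 18 libraries pools the spread over 6 groups. The fit was run on simulated data in which each gene had the same spread in every group. That run cannot test the effect of the unequal spread of the real groups. Counting intervals are 95% exact conditional intervals.

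Genes were named by rule: the 10 largest called rises and falls with groups apart, up to 3 genes of smallest p per list, 5 genes per direction farther from healthy than vehicle, 5 per direction of smallest p against the other arms, and check genes. Other list members and treat genes were named after their values were seen. The members and lists were chosen with earlier results of these data known. Promoters came from RefSeq and gene positions from GENCODE M21, both on GRCm38. Alternatives were other scalings, filters, weights, priors, fits of fewer groups and left-out mice. Some genes that the rule names are not reported here.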

Additional observations from a re-analysis of the deposited data

Results flagged for a closer look

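For 2 of the 151 genes named by rule, all FK506 mice and all vehicle mice lay on opposite sides of every healthy mouse, as they did for 112 of all 15035 genes (0.745%). Fpgs, the folylpolyglutamate synthase that retains folates in cells, read 11.92, 11.91 and 11.75 in FK506 mice, 11.67, 11.43 and 11.61 in healthy mice and 11.42, 11.30 and 11.03 in vehicle mice, and FK506 minus vehicle was 0.61. Acpp, an acid phosphatase, read 8.31, 8.21 and 8.35 in FK506 mice, 8.47, 8.44 and 8.53 in healthy mice and 8.90, 8.85 and 9.09 in vehicle mice, and FK506 minus vehicle was -0.66. Neither difference between FK506 and vehicle passed limma's test (adjusted p = 0.171 for both), and neither gene was called against healthy. Both were among the genes chosen for a small p against the other MRL/lpr groups, so the separation is a description.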

How the results depend on the processing

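The 1093 calls between FK506 and healthy mice became 3673 when only these groups were fitted, 710 after quantile normalization, 606 when the lowest 25% of genes were dropped and 8559 with array weights, whose estimation stopped before convergence. The 32 genes beyond 1 log2 became 94, 16 and 297 in the first, second and last of these. With 1 FK506 or healthy mouse left out, the counts ran from 239 to 1162 and from 7 to 12. Taking the spread without vehicle mouse 17, vehicle mouse 36 or the vehicle group, alternatives chosen after seeing the data, gave 950, 1520 and 1327. The 3369 calls between vehicle and healthy became 2226 when the lowest 25% of genes were dropped, 5519 under array weights and 1490 to 4023 with a mouse left out. FK506 against vehicle had 2326 calls with array weights and 0 to 1 with a mouse left out, and FK506 against the other arms had 556 with array weights. Ppp3ca turned from 0.04 to -0.03 (quantile) and -0.07 (equal medians). Of 78 called named genes, 33 were called in all 6 fits that left out an FK506 or healthy mouse, 60 after quantile normalization and 68 with equal medians. Apart from the fits with fewer genes or samples, the cause of these changes was not tested. No paired analysis was possible because the labels pair no FK506 mouse with a healthy mouse. A mouse number that occurs in both groups is not a pairing. Depth limits the genes with a handful of reads in healthy mice, whose folds rest on wide counting intervals.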

Other observations

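Further gene groups held scattered calls, beside 5.73% of all genes that rose and 1.54% that fell. Of 27 xenobiotic metabolism genes, Cyp7b1, an oxysterol hydroxylase, rose (0.93 ± 0.26, limma adjusted p = 0.0469), and Ces1d, Ces1g and Cyp4b1, a fatty acid hydroxylase, fell, with a median of -0.17 against -0.91 under vehicle. Cyp4b1 fell by 1.06 ± 0.30 (limma adjusted p = 0.0462), from 16.07, 16.46 and 16.18 in healthy mice to 14.84, 15.07 and 15.61 in FK506 mice. Of 15 unfolded protein response genes, the transcription factor genes Xbp1 (0.50) and Atf4 (0.59) rose and 0 fell. Fdft1, squalene synthase, was the 1 rise among 17 cholesterol synthesis genes, at 10.65, 10.64 and 10.62 in FK506 mice against 10.02 to 10.07 in healthy mice (limma adjusted p = 0.0419).

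Arntl, the clock activator BMAL1, was the 1 called gene of 16 clock genes, at 9.42, 10.07 and 9.27 in FK506 mice against 8.55, 8.67 and 8.76 in healthy mice (0.92 ± 0.23, limma adjusted p = 0.0264). Its targets Nr1d2 and Dbp differed by -0.66 and -1.37 and were not called, and the time of day of tissue collection is not named in the labels. Nr3c1, the glucocorticoid receptor, fell by 0.55 ± 0.14 (limma adjusted p = 0.0307) and was the 1 call of 20 glucocorticoid-related genes. Zbtb16, a glucocorticoid-induced gene, differed by 1.83 without being called. Cyp4b1, Xbp1, Atf4, Fdft1, Arntl and Nr3c1 each lost their call in at least 5 of the 6 fits that left out an FK506 or healthy mouse (adjusted p between 0.0529 and 0.178). Xbp1, Atf4 and Fdft1 were also lost under both rescalings, and Cyp4b1 and Arntl under quantile normalization. The count of xenobiotic genes called higher, 1 with Cyp7b1, was 0 without FK506 mouse 3 or 12 or any healthy mouse, with equal medians and with the filter on low genes.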
